A study of Mus musculus with 12 samples.

Results

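Integrins are the cell surface receptors that tie a cell to its extracellular matrix, and laminins are the matrix proteins that many of them bind. The 37 genes described here are the rows among 24525 whose symbol names an integrin alpha subunit (18 genes), an integrin beta subunit (8 genes) or a laminin chain (11 genes). A gene entered the set by its symbol and not by its value. The set itself was picked with earlier results of these data known. Of the 37 genes, 24 had enough reads to be tested (17 integrins and 7 laminins), and the other 13 had too few reads for a test.

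The data are the RNA-seq input libraries of an m6A study, the part of each fragmented mRNA sample that saw no antibody. They come from neural stem/progenitor cells (NSPCs) of E14.5 C57BL/6 mouse forebrain, grown as free-floating neurospheres with EGF and bFGF, without further treatment and at the first passage. The 3 wild-type and 3 *Ythdf2*-/- cultures differ by a germline deletion of the 5′ UTR and the first exon of *Ythdf2*, which was made by crossing floxed mice with mice that express Cre in every tissue and intercrossing the heterozygous offspring. *Ythdf2* encodes a reader of m6A that promotes the decay of the mRNAs it binds. The 3 libraries of a genotype are described as biological replicates, and the number of embryos behind a culture is not given in the sources used here.

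Each integrin is a pair of an alpha and a beta subunit, and the pair decides the ligand. Each laminin is a cross-shaped trimer of an alpha, a beta and a gamma chain, held in basement membranes together with nidogen, perlecan, agrin and collagen IV. In the embryonic cortex radial glia, the stem cells of the tissue, hold on to laminin with their pial endfeet and also meet laminin in the ventricular zone, mainly through integrins that contain the beta1 subunit. Neurospheres make their own matrix while they float.

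The libraries held 11029827 to 13185778 counted reads, of which the integrin and laminin genes took 0.2091% to 0.2452% in 5 libraries and 0.1501% in wild-type replicate 3. That library stood apart from the rest. Its counts differed from the other wild-type libraries by a chi-square of 137 and 141 per degree of freedom, against 4.60 between wild-type replicates 1 and 2 and 22.7 to 57.0 among the *Ythdf2*-/- libraries. *Ythdf2* itself had 78.9 ± 10.9 CPM in wild type and 12.5 ± 1.91 CPM in *Ythdf2*-/- (SD, n = 3 each), so each library matched its label. Levels are given below in CPM (read counts scaled to library size, with TMM factors), always in the order of replicates 1, 2 and 3. In a bulk culture a smaller share of cells that express a gene and less of its mRNA per cell cannot be told apart.

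Markers of 8 cell types were summed in each library. All 10 neural progenitor markers were tested, and their summed level was 3887 CPM in wild-type replicate 3 and 5140 to 7041 CPM in the other 5 libraries. The 14 oligodendrocyte lineage markers summed to 5298 CPM in wild-type replicate 3 against 1808 to 2237 CPM elsewhere, the 14 neuron markers to 2502 against 1314 to 1744 CPM, the 11 astrocyte markers to 16000 against 4801 to 13000 CPM, and the 8 Schwann cell and neural crest markers to 242 against 113 to 134 CPM. Within these lists the genes did not move together. *Olig1* and *Olig2*, the leading oligodendrocyte lineage markers, were lowest in wild-type replicate 3, with 547 and 324 CPM against at least 874 and 417 CPM elsewhere. *Sox10*, which stands in both the oligodendrocyte and the neural crest list, had 3.94, 2.06 and 122 CPM in wild type and 3.16, 2.89 and 0.563 CPM in *Ythdf2*-/-, whereas the neural crest marker *Pmp22* had 4.49 CPM in wild-type replicate 3 and 18.2 to 40.9 CPM elsewhere. Of the astrocyte markers, *Slc1a3* had 2289, 2552 and 1872 CPM in wild type and 3345, 1407 and 3743 CPM in *Ythdf2*-/-. *Gfap*, an intermediate filament of astrocytes, was lower in each *Ythdf2*-/- library than in any wild-type library, with 437, 625 and 3046 CPM in wild type and 127, 87.7 and 5.55 CPM in *Ythdf2*-/- and a log2 fold change of -4.22 ± 1.30 (SE; edgeR unadjusted p = 0.0166, Benjamini-Hochberg adjusted p = 0.999). Without wild-type replicate 3 that of *Gfap* was -2.85 ± 1.0 (SE). The 12 mesenchymal and pericyte markers summed to 38.4 CPM in wild-type replicate 3, of which *Pdgfrb* made 31.8 CPM, against 5.85 to 10.9 CPM elsewhere. The 12 endothelial markers reached 3.41 to 5.65 CPM in sum, with *Cldn5* at 0 reads in each library. The 14 microglia and macrophage markers summed to 37.0 to 57.7 CPM, and *Ptprc*, *Fcrls*, *C1qa*, *C1qb* and *C1qc* were at 0 reads in the 6 libraries. Among the neuron markers *Slc17a6*, *Dlx5* and *Dlx6* were at 0, and so was *Foxd3* among the neural crest markers. The part these markers play in the values below was not tested, apart from leaving wild-type replicate 3 out.

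m6A lies most often in a short RRACH motif, of which GGACT in DNA letters is the most familiar form, and often near stop codons. The antibody libraries were not analysed here, so no statement is made about m6A on these mRNAs, and the motif is shown only as the sequence context that a reader of m6A meets. On the sense strand of the longest GENCODE M21 coding transcript, each of the 24 genes tested held at least 1 GGACT, as did 92.44% of the 12288 genes tested with such a transcript. The median was 1.22 per kb for the 24 genes and 1.05 per kb for all. *Itgb1* and *Itgb8* were on the sparse side, with 0.524 and 0.595 per kb, and *Itgb5* was the densest of the abundant subunits, with 2.29 per kb. The copy nearest to the stop codon is printed for 6 genes that carry the results below, with the motif in capitals inside 25 bases:
*Itgb1*: tccatgccagGGACTgacagaagac
*Itgb8*: gaaccacagaGGACTcaaaggacag
*Itgav*: tgaaatcccaGGACTgtattgctga
*Itga4*: cttgctacttGGACTtattgtactt
*Itga5*: cgacagggagGGACTaggcacttcc
*Lama5*: tagaggaaaaGGACTctgtagaaca
In GRCm38, the assembly also called mm10, these windows are chr8:128732256-128732280 on the plus strand (*Itgb1*, last of 16 exons, 3′ UTR), chr12:119170891-119170915 on the minus strand (*Itgb8*, exon 10 of 14, coding), chr2:83803416-83803440 on the plus strand (*Itgav*, last of 30 exons, 3′ UTR), chr2:79325643-79325667 on the plus strand (*Itga4*, exon 27 of 28, coding), chr15:103345194-103345218 on the minus strand (*Itga5*, last of 30 exons, 3′ UTR) and chr2:180176450-180176474 on the minus strand (*Lama5*, last of 79 exons, 3′ UTR).

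The design asks whether loss of *Ythdf2* alters mRNA levels in NSPCs. With all 6 libraries, edgeR's quasi-likelihood test placed 0 of the 24 integrin and laminin genes under an adjusted p of 0.05, and 0 of all 13112 genes tested (0%). The deleted gene *Ythdf2* missed it too, at a log2 fold change of -2.66 ± 0.183 (SE) and an edgeR adjusted p of 0.0547. A count of 0 in this fit thus does not show that levels were unchanged. An unadjusted p under 0.05 was reached by 2 of the 24, *Itga3* and *Itgb8*, where 3.63% of all genes reached it. Both were higher in *Ythdf2*-/- (1.81% of all genes) and 0 were lower (1.82%). Log2 fold changes, always *Ythdf2*-/- over wild type, ran from -1.57 to 1.33 with a median of 0.01, against -0.01 over all genes, and 12 of the 24 were above 0 (48.1% of all genes). In 4 genes, *Itga3*, *Itgb8*, *Lama1* and *Lamb1*, the lowest *Ythdf2*-/- library exceeded the highest wild-type library, and in 0 genes the reverse held (4.92% of all genes). Over all genes the groups did not overlap in 10.2%, with *Ythdf2*-/- higher in 5.24%. An exact permutation test of a single gene cannot go under a two-sided p of 0.1 with 3 libraries against 3.

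**Figure D1:**
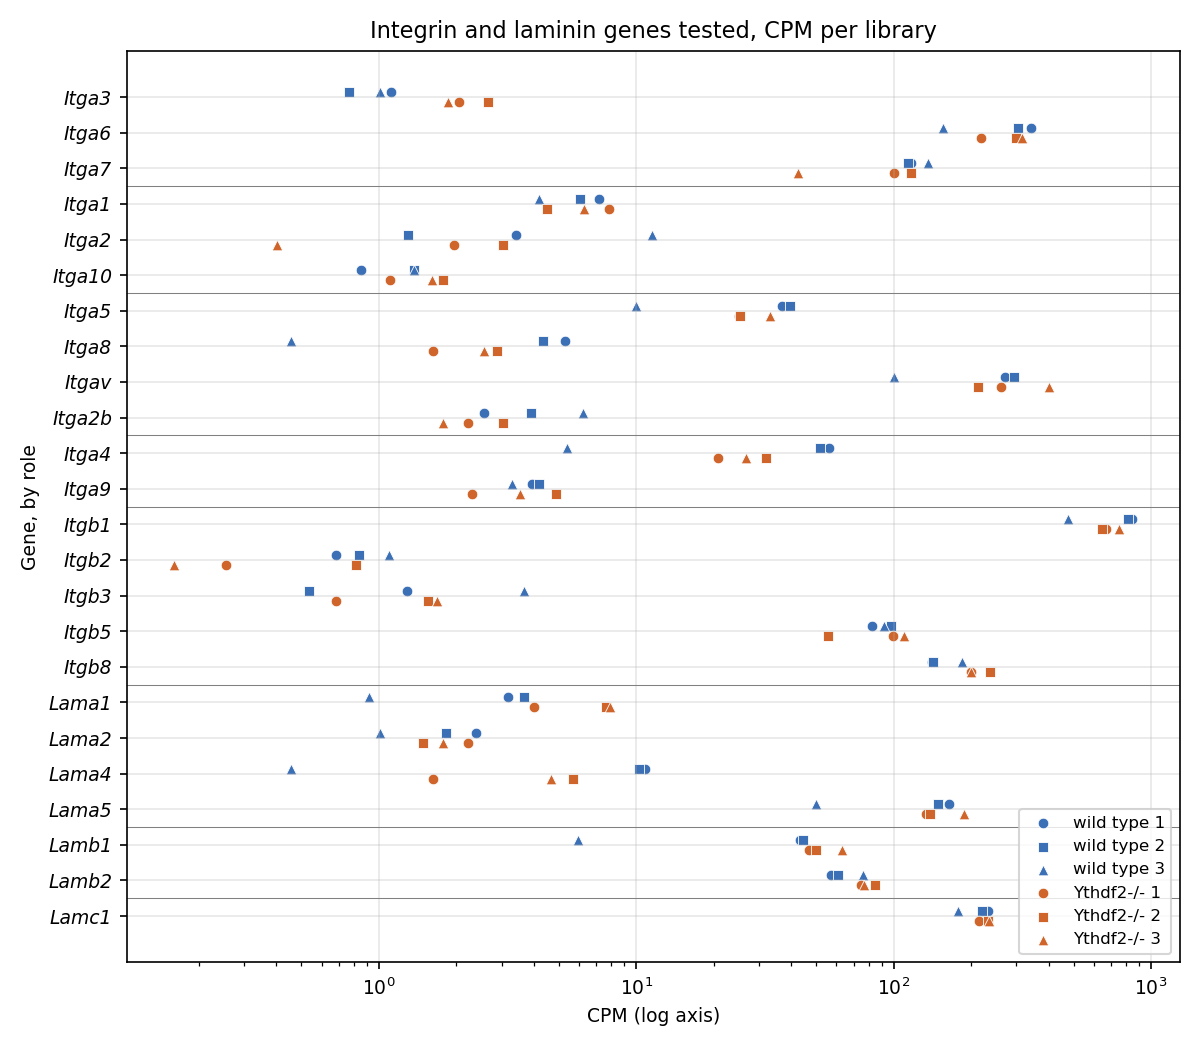
CPM (log axis) of the 24 integrin and laminin genes tested, 1 point per library, with wild type in blue and *Ythdf2*-/- in orange and the marker shape giving the replicate. *Itgb1* lies at 476 to 843 CPM and *Itga3* at 0.763 to 2.67 CPM, and the blue triangle, wild-type replicate 3, lies far to the left for *Itga4*, *Lama4* and *Lamb1*.

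Levels were compared between genes per length, as RPKM (CPM per kb of the gene length in the deposited gene tables). *Itgb1* was the most abundant, with 169 ± 48.5 RPKM in wild type and 165 ± 13.2 RPKM in *Ythdf2*-/- (SD, n = 3 each). Then came *Itgb8*, *Itga6*, *Itgav*, *Lamc1*, *Itgb5*, *Itga7*, *Lamb2*, *Lama5* and *Lamb1*, with means over the 6 libraries from 59.4 down to 7.33 RPKM. Some neighbours in this order overlapped in their spreads in both genotypes, among them *Itga6* with 45.5 ± 16.8 RPKM in wild type and 47.2 ± 8.94 RPKM in *Ythdf2*-/- and *Itgav* with 31.4 ± 14.9 RPKM in wild type and 41.4 ± 14.0 RPKM in *Ythdf2*-/-, while others did not in wild type: *Itga7* had 30.4 ± 2.95 RPKM in wild type and 21.6 ± 9.76 RPKM in *Ythdf2*-/-, and *Lamb2*, the next gene, had 11.5 ± 1.80 RPKM in wild type and 14.0 ± 0.917 RPKM in *Ythdf2*-/-. *Itgb1* stood apart from the second gene. The deposited tables list *Itgb8* with 3096 bases, and the longest GENCODE transcript has 8403, with which its mean would be 21.9 RPKM and its place the seventh in place of the second, an alternative chosen after seeing the data. The 10 highest genes were the same 10 with either length and in CPM. *Itga5* and *Itga4* followed at 6.41 and 3.27 RPKM, and every other gene stayed near or under 1 RPKM. The abundant set thus holds the beta1 and alphav subunits, their main partners, and the chains of laminins 511 and 521 (alpha5, beta1 or beta2, gamma1).

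*Itgb1* pairs with most alpha subunits and is the common receptor chain for laminin, collagen and fibronectin. It had 843, 811 and 476 CPM in wild type and 670.4, 648 and 753 CPM in *Ythdf2*-/-, and its log2 fold change was -0.04 ± 0.251 (SE). Wild-type replicate 3 was the lowest library, and the 3 *Ythdf2*-/- libraries lay between it and the other wild-type libraries.

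*Itgb8* (chromosome 12, minus strand, 119162803 to 119238276, 14 exons) encodes a subunit that pairs only with alphav, activates latent TGF-beta and in the neural tube is made by neuroepithelial cells and radial glia. It had 142, 143 and 185 CPM in wild type and 199, 237 and 199 CPM in *Ythdf2*-/-, that is, 156 ± 24.8 CPM in wild type and 212 ± 21.6 CPM in *Ythdf2*-/- (SD, n = 3 each). The groups did not overlap, though *Ythdf2*-/- replicates 1 and 3 exceeded wild-type replicate 3 by little. The log2 fold change was 0.44 ± 0.162 (SE; edgeR unadjusted p = 0.0335, Benjamini-Hochberg adjusted p = 0.999). Reads on Y-linked genes, present in wild-type replicates 1 and 2 and in *Ythdf2*-/- replicate 3, split the libraries into 2 classes. *Itgb8* was higher in *Ythdf2*-/- within either class, which the lack of overlap fixes beforehand, so this is no separate check. The partner of *Itgb8*, *Itgav*, the receptor chain for vitronectin and other RGD ligands, had 271, 294 and 101 CPM in wild type and 261, 213 and 403 CPM in *Ythdf2*-/-. Its groups overlapped, and its log2 fold change was 0.40 ± 0.443 (SE). Left without wild-type replicate 3 it was 0.05 ± 0.267 (SE), without *Ythdf2*-/- replicate 3 it was 0.0951, and without wild-type replicate 2 it was 0.653.

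*Itgb5*, another partner of alphav, had 82.7, 97.8 and 92.2 CPM in wild type and 99.3, 55.5 and 109.5 CPM in *Ythdf2*-/- and a log2 fold change of -0.05 ± 0.261 (SE). *Itgb3*, the beta chain of the platelet and osteoclast receptors, was low, with 1.28, 0.534 and 3.66 CPM in wild type and 0.682, 1.56 and 1.69 CPM in *Ythdf2*-/-. Wild-type replicate 3 was its highest library, and its log2 fold change was -0.46 ± 0.740 (SE). *Itgb2*, the beta chain of leukocyte integrins, had 2 to 12 reads per library and a log2 fold change of -1.05 ± 0.635 (SE). The remaining beta genes were not tested. *Itgb4*, the partner of alpha6 in hemidesmosomes, had 2 to 7 reads and *Itgb6*, an epithelial partner of alphav, 1 to 7. *Itgb7*, a lymphocyte subunit, had 3, 4 and 50 reads in wild type and 4, 5 and 1 in *Ythdf2*-/-, so most of its reads came from wild-type replicate 3.

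Among the laminin-binding alpha subunits, *Itga6* had 343, 305 and 155 CPM in wild type and 218, 299.7 and 316 CPM in *Ythdf2*-/-, and its log2 fold change of 0.06 ± 0.321 (SE) was within the error. *Itga7*, best known as the laminin receptor of muscle, had 117, 114 and 136 CPM in wild type and 101, 117 and 42.4 CPM in *Ythdf2*-/- and a log2 fold change of -0.49 ± 0.362 (SE). *Ythdf2*-/- replicate 3 was more than 2 times below any other library for *Itga7*, and the other 5 lay close together. Without that library the log2 fold change of *Itga7* was -0.165. *Itga7* shares 202 bp of its exons with genes annotated on the other strand, and the strand setting of the counting is not stated. *Itga3* (chromosome 11, minus strand, 95044475 to 95076844), a receptor for laminins 332 and 511, was rare but separated the genotypes, with 1.11, 0.763 and 1.01 CPM in wild type and 2.05, 2.67 and 1.85 CPM in *Ythdf2*-/-. These levels rest on 13, 10 and 11 reads in wild type and 24, 36 and 23 in *Ythdf2*-/-. Its log2 fold change was 1.18 ± 0.333 (SE), with an edgeR unadjusted p of 0.0108 and a Benjamini-Hochberg adjusted p of 0.999. Within each class of Y-linked reads *Ythdf2*-/- was the higher genotype, as must be where the groups do not overlap.

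The alpha subunits that read RGD and related sites in fibronectin, vitronectin and nephronectin were led by *Itgav*. *Itga5*, the fibronectin receptor chain, had 36.8, 39.7 and 9.98 CPM in wild type and 25.2, 25.3 and 33.1 CPM in *Ythdf2*-/- and a log2 fold change of -0.05 ± 0.490 (SE). *Itga8*, the nephronectin receptor chain, had 5.31, 4.35 and 0.458 CPM in wild type and 1.62, 2.89 and 2.58 CPM in *Ythdf2*-/- and a log2 fold change of -0.51 ± 0.773 (SE). In both genes wild-type replicate 3 was the lowest library and wild-type replicates 1 and 2 the highest. *Itga2b*, the platelet subunit, had 2.57, 3.89 and 6.22 CPM in wild type and 2.22, 3.04 and 1.77 CPM in *Ythdf2*-/- and a log2 fold change of -0.85 ± 0.418 (SE).

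*Itga4* (chromosome 2, plus strand, 79255426 to 79333114, 28 exons) encodes a receptor chain for Vcam1 and fibronectin, and 166 bp of its exons overlap *Cerkl* on the other strand. It showed the same order, with 56.2, 51.9 and 5.40 CPM in wild type and 20.7, 32.1 and 26.8 CPM in *Ythdf2*-/- and a log2 fold change of -0.51 ± 0.752 (SE). *Itga9*, its closest relative, had 3.94, 4.20 and 3.30 CPM in wild type and 2.30, 4.89 and 3.54 CPM in *Ythdf2*-/-, and its groups overlapped. The collagen receptor chains were low: *Itga1* at 4.21 to 7.85 CPM, *Itga10* at 0.856 to 1.78 CPM, and *Itga2* at 3.42, 1.30 and 11.5 CPM in wild type and 1.96, 3.04 and 0.402 CPM in *Ythdf2*-/-. *Itga2* had the lowest log2 fold change of the 24 genes, -1.57 ± 0.962 (SE), with its highest value in wild-type replicate 3 and its lowest in *Ythdf2*-/- replicate 3. Without wild-type replicate 3 it was -0.37 ± 0.783 (SE), and *Lama4*, at -1.39, was the lowest. *Itga11*, the fibroblast collagen receptor, had 0 to 6 reads.

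The alpha subunits of white blood cells had few reads or none. *Itgad* and *Itgax* had 0 reads in each of the 6 libraries, and a count of 0 allows up to 3 reads, or 0.228 to 0.272 CPM, by counting error alone. *Itgam* had 0 to 4 reads per library, *Itgal* 0 to 8 and *Itgae* 2 to 15. Of the 14 microglia and macrophage markers 5 were at 0 reads in the same libraries, while others had reads, among them *Cx3cr1* with 3 to 12 per library, *Csf1r* with 0 to 2 and *Cd68* with 27 to 70.

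Of the laminin alpha chains, *Lama5*, the alpha chain of most basement membranes, had 164, 149 and 49.9 CPM in wild type and 133, 138 and 188 CPM in *Ythdf2*-/- and a log2 fold change of 0.34 ± 0.436 (SE). Its exons share 369 bp with a gene model on the other strand. *Lama4*, known from vessel walls, had 10.9, 10.2 and 0.458 CPM in wild type and 1.62, 5.70 and 4.67 CPM in *Ythdf2*-/-, and its log2 fold change was -0.84 ± 0.993 (SE). Both were lowest in wild-type replicate 3, and *Lama4* was also below 2 CPM in *Ythdf2*-/- replicate 1. *Lama1*, the chain of the first embryonic basement membranes, had 3.17, 3.66 and 0.915 CPM in wild type and 4.01, 7.63 and 7.89 CPM in *Ythdf2*-/-. Each *Ythdf2*-/- library exceeded each wild-type library, *Ythdf2*-/- replicate 1 by the least, and the log2 fold change was 1.33 ± 0.551 (SE; edgeR unadjusted p = 0.0509, Benjamini-Hochberg adjusted p = 0.999). *Lama2*, the muscle and glial chain, stayed between 1.01 and 2.40 CPM, and the epithelial *Lama3* had 1 to 15 reads, the most in wild-type replicate 3.

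The beta chains differed from each other. *Lamb1*, whose 33 exons run along the plus strand of chromosome 12 from 31265146 to 31329644, had 43.5, 44.4 and 5.95 CPM in wild type and 47.1, 50.1 and 63.2 CPM in *Ythdf2*-/-. Its groups did not overlap, yet *Ythdf2*-/- replicate 1 was near wild-type replicates 1 and 2, and the log2 fold change was 0.77 ± 0.666 (SE) with wild-type replicate 3 far below the rest. *Lamb2*, also of 33 exons, lies on the plus strand of chromosome 9 from 108479847 to 108490530 and had 57.0, 60.9 and 76.2 CPM in wild type and 74.9, 84.5 and 76.4 CPM in *Ythdf2*-/-. Here wild-type replicate 3 lay within the *Ythdf2*-/- range, the other wild-type libraries below it, and the log2 fold change was 0.28 ± 0.151 (SE; edgeR unadjusted p = 0.108, Benjamini-Hochberg adjusted p = 0.999). *Lamc1*, the gamma chain of nearly all laminins, was the steadiest abundant gene of the set, with 234, 221 and 179 CPM in wild type and 216, 232 and 235 CPM in *Ythdf2*-/- and a log2 fold change of 0.11 ± 0.147 (SE). The epithelial chain *Lamb3* (2 to 9 reads) and the gamma3 chain *Lamc3* (0 to 3 reads) were not tested.

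Ratios within a library do not depend on its scaling. By RPKM, *Lamb1* made 42.2%, 41.2% and 7.04% of all laminin beta chain mRNA in wild type and 37.7%, 36.3% and 44.3% in *Ythdf2*-/-. Wild-type replicate 3 alone held nearly all of it as *Lamb2*. *Lama5* made 85.2% to 92.5% of the alpha chain mRNA in the 6 libraries and *Lamc1* at least 99.4% of the gamma chain mRNA. *Lama4* made at least 10.7% of the alpha chains in wild-type replicates 1 and 2, 1.58% in wild-type replicate 3, and 2.12%, 6.72% and 4.21% in *Ythdf2*-/-. The ratio of *Itgb8* to *Itgb1* in RPKM was 0.227, 0.238 and 0.526 in wild type and 0.403, 0.495 and 0.359 in *Ythdf2*-/-, so the genotypes overlapped through wild-type replicate 3 alone. With the GENCODE lengths, chosen after seeing the data, the same ratios were 0.0762, 0.0798 and 0.176 in wild type and 0.135, 0.166 and 0.120 in *Ythdf2*-/-, lower throughout and in the same order. *Itga6* exceeded *Itga7* in 5 libraries, by 1.48 to 5.10 times in RPKM, and had its smallest ratio to it, 0.783, in wild-type replicate 3. That ratio turned to 1.11 with the GENCODE lengths, against 2.10 to 7.22 in the other 5 libraries, so which of the 2 genes was higher in wild-type replicate 3 depends on the length used.

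**Figure D2:**
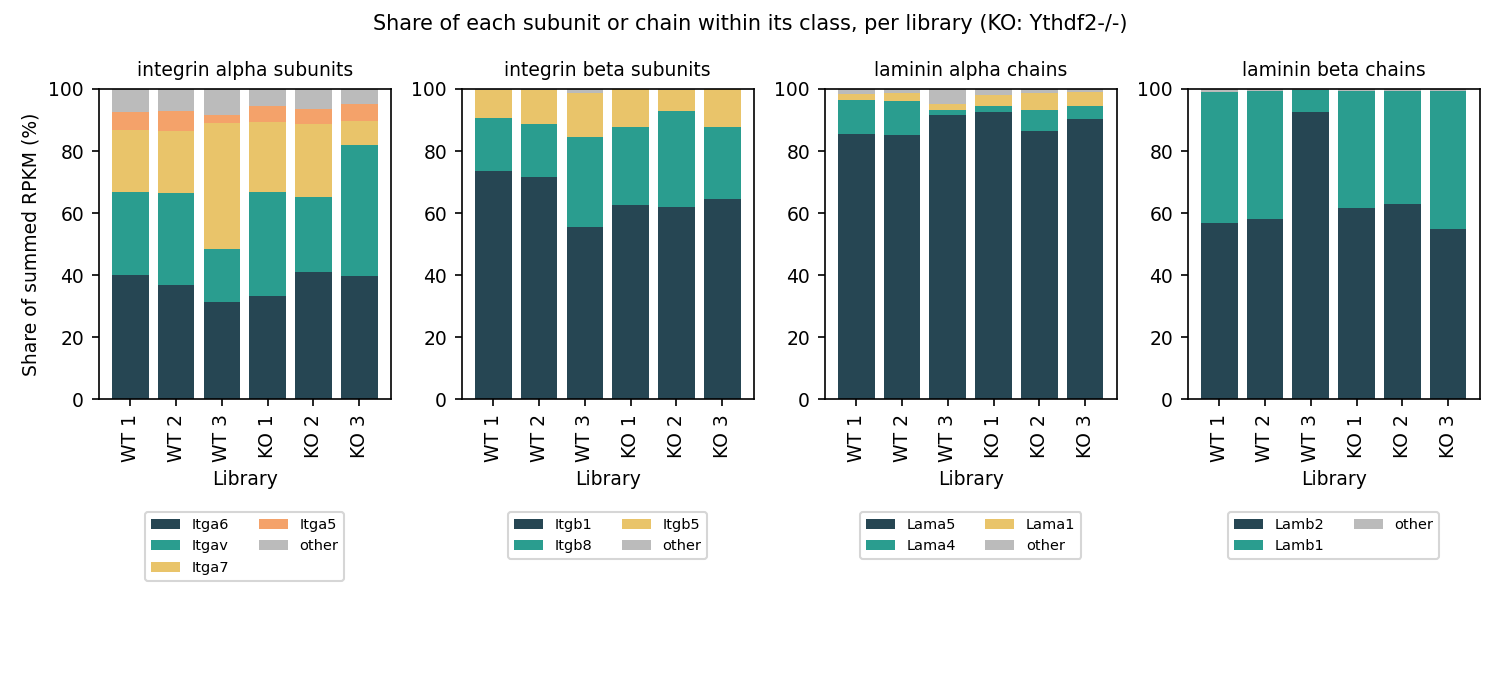
Share of summed RPKM (deposited gene lengths; %, bars from 0 to 100) of each subunit or chain within its class in each library, with WT for wild type and KO for *Ythdf2*-/-. *Lamb2* fills 92.6% of the laminin beta bar in wild-type replicate 3 and 55.0% to 63.0% in the other 5, and *Itgb1* takes its smallest share, 55.5%, in the same library.

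Wild-type replicate 3 differed in many of these genes. In 8 of the 24 it was at least 2 times below the lowest other library, where 7.05% of all genes were: *Itga5*, *Itga8*, *Itgav*, *Itga4*, *Lama1*, *Lama4*, *Lama5* and *Lamb1*. Against the mean of the other 5 libraries it held 6.92% of *Lama4*, 13.7% of *Itga8*, 14.4% of *Itga4*, 31.2% of *Itga5* and 35.0% of *Itgav*. In 2 genes, *Itga2* and *Itgb3*, it was at least 2 times the highest other library, as in 4.16% of all genes. It was the lowest library in 13 of the 24 genes and in 34.4% of all genes. The high oligodendrocyte lineage, neuron and astrocyte sums and the low progenitor sum given above belong to this library, with the exceptions within those lists named there, and their part in these differences was not tested. In *Itgb8*, *Itgb5*, *Lamb2*, *Itga3*, *Itga9* and *Itga10* it lay within the range of the other libraries. Among the rest, *Ythdf2*-/- replicate 3 was at least 2 times below the lowest other library in 2 of the 24 genes, *Itga7* and *Itga2* (1.1% of all genes), and each of the other 4 libraries was so in 0 of the 24 (0.122% to 0.419% of all genes).

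**Figure D3:**
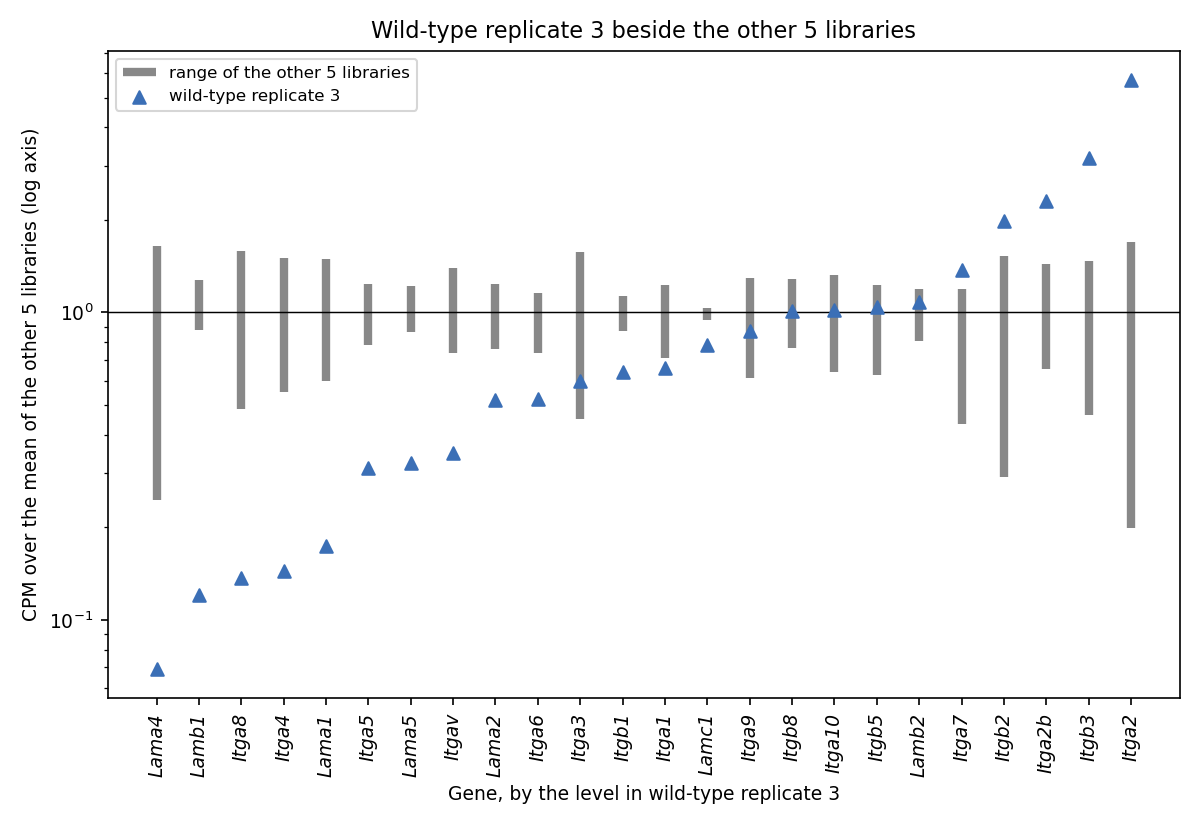
CPM in wild-type replicate 3 (triangles) and the range of the other 5 libraries (grey bars), each divided by the mean of those 5 (log axis), for the 24 genes tested. The triangles run from 0.0692 for *Lama4* to 5.70 for *Itga2*, and those of *Itgb8*, *Itgb5*, *Lamb2*, *Itga3*, *Itga9* and *Itga10* lie inside the bars.

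The comparison was therefore repeated without wild-type replicate 3, with 2 wild-type and 3 *Ythdf2*-/- libraries and 25 of the genes tested. The edgeR test called 0 of the 25 after adjustment (0.0151% of all genes), and 8 before it, where 16.6% of all genes were called. Higher in *Ythdf2*-/- by that measure were *Itga3*, *Itgb8*, *Lama1* and *Lamb2* (8.03% of all genes), and lower were *Itga4*, *Itga5*, *Itga8* and *Lama4* (8.58% of all genes). The log2 fold change of *Itga4* was -1.03 ± 0.186 (SE; edgeR unadjusted p = 0.00132, adjusted p = 0.151). That of *Itgb8* was 0.58 ± 0.115 (SE; edgeR unadjusted p = 0.00217, adjusted p = 0.153). As log2 fold change ± SE, it was 0.42 ± 0.102 for *Lamb2*, -0.46 ± 0.156 for *Itga5*, -1.02 ± 0.325 for *Itga8*, -1.39 ± 0.466 for *Lama4*, 1.22 ± 0.382 for *Itga3* and 0.93 ± 0.358 for *Lama1*. The median over the 25 genes was -0.18, against 0.01 over all genes, with 9 above 0 and 16 below, where 6872 of 13283 genes were above 0.

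With this library left out, the wild-type and *Ythdf2*-/- libraries did not overlap in 10 of the 24 genes of the first test. *Ythdf2*-/- was higher in *Itga3*, *Itgb8*, *Lama1*, *Lamb1* and *Lamb2* (18.9% of all genes) and lower in *Itga4*, *Itga5*, *Itga8*, *Itgb1* and *Lama4* (20% of all genes). For *Itgb1* the log2 fold change was then -0.26 ± 0.129 (SE; edgeR unadjusted p = 0.0877, adjusted p = 0.360). Both remaining wild-type libraries hold Y-linked reads and only 1 *Ythdf2*-/- library does, so in this comparison genotype and what the Y-linked reads mark cannot be fully told apart. Within the libraries that hold them, *Ythdf2*-/- replicate 3 had 26.8 CPM of *Itga4* and 4.67 CPM of *Lama4*, below 51.9 and 10.2 CPM in the lower of the wild-type pair. Within those that lack them, wild-type replicate 3 had 5.40 and 0.458 CPM, below both *Ythdf2*-/- libraries, so for these 2 genes the direction differed between the classes. The same held for *Itga5*, *Itga8* and *Itgb1*, and so for all 5 genes that were lower in *Ythdf2*-/- without wild-type replicate 3. In the class with Y-linked reads the direction follows from how these 5 genes were picked. In the other class it rests on wild-type replicate 3, the only wild-type library there.

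**Figure D4:**
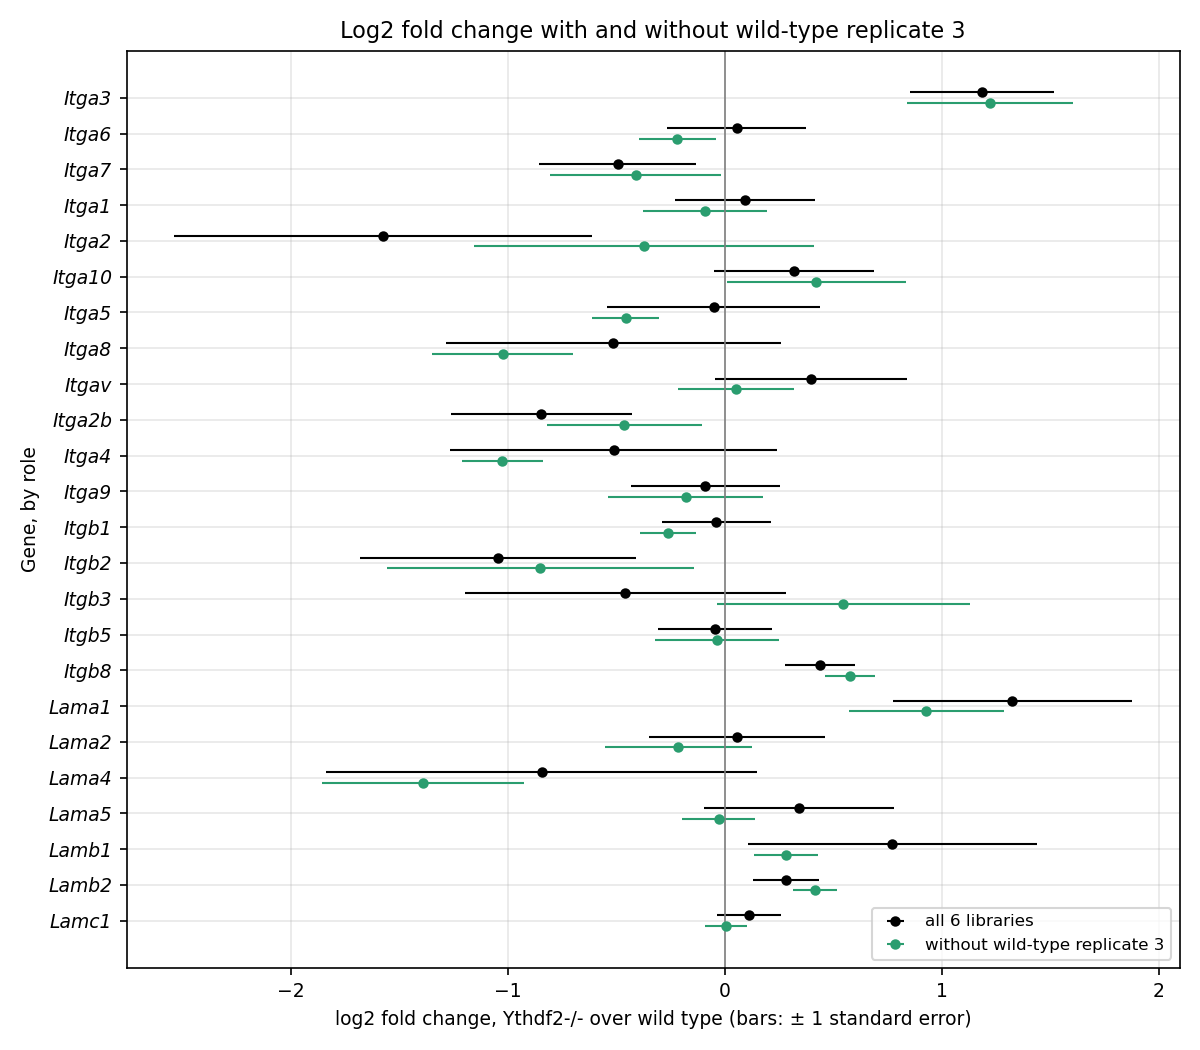
Log2 fold change of *Ythdf2*-/- over wild type with bars of 1 standard error, for the 24 genes tested, with all 6 libraries (black) and without wild-type replicate 3 (green). *Itgb8* stays at 0.44 and 0.58 and *Itga3* at 1.18 and 1.22, while *Itga4* goes from -0.51 to -1.03 and *Lamb1* from 0.77 to 0.28.

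Limma-voom with sample quality weights keeps the 6 libraries and gave wild-type replicate 3 a weight of 0.0901, against 2.72 and 3.74 for wild-type replicates 1 and 2. The wild-type side thus rests mostly on those 2 libraries, and the limit from the Y-linked reads given above holds here too. This fit placed 2 of the 24 genes under an adjusted p of 0.05, where 4.82% of all genes were. *Itgb8* rose by a log2 fold change of 0.51 (standard error 0.0752; adjusted p = 0.0328 by limma) and *Lamb2* by 0.36 (standard error 0.0762; adjusted p = 0.0485 by limma). Without the weights limma-voom called 0 of the 24 genes, with an unadjusted p under 0.05 in 3 (3.47% of all genes).

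The genes that act with these receptors were read from 3 lists of 73 genes, of which 65 were tested. Of 30 integrin adaptor and signalling genes tested, edgeR called 0 after adjustment and 2 at an unadjusted p under 0.05 (3.63% of all genes). The median log2 fold change was -0.11, with 9 genes above 0 and 21 below, where 48.1% of all genes were above 0. Without wild-type replicate 3 the median turned to 0.05. Both genes with an unadjusted p under 0.05 were lower in *Ythdf2*-/-. *Cd9*, a tetraspanin that sits beside integrins in the membrane, had 139, 150.3 and 126 CPM in wild type and 104, 109.8 and 89.2 CPM in *Ythdf2*-/-, and its log2 fold change was -0.46 ± 0.138 (SE). *Flna*, a filamin that links beta tails to actin, had 388, 346 and 319 CPM in wild type and 206, 307 and 235 CPM in *Ythdf2*-/-, and its log2 fold change was -0.50 ± 0.190 (SE). In both genes the 3 *Ythdf2*-/- libraries lay below the 3 wild-type ones. The groups were also apart, with *Ythdf2*-/- lower, in *Cd81*, *Actn4* and *Vcl*, and with *Ythdf2*-/- higher in *Tln1*, *Parva* and *Crkl*. That makes 5 genes of the list lower and 3 higher, against 4.92% and 5.24% of all genes. The most abundant genes of the list were *Cd81*, *Fyn* and *Flna*, and *Cd81*, another tetraspanin, had 673, 705 and 1063 CPM in wild type and 629.5, 619.8 and 566 CPM in *Ythdf2*-/-. *Fyn*, a Src family kinase, had 494, 496 and 578 CPM in wild type and 437, 469.7 and 568 CPM in *Ythdf2*-/-, with overlapping groups.

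Of 18 basement membrane partners and other laminin receptors tested, 0 had an unadjusted p under 0.05 by edgeR, and the median was 0.12 with 12 above 0. *Dag1*, which encodes the laminin receptor dystroglycan, had 621, 669 and 529.7 CPM in wild type and 633, 561 and 986 CPM in *Ythdf2*-/-. *Agrn*, agrin, had 358, 364 and 723 CPM in wild type and 426, 533 and 410.0 CPM in *Ythdf2*-/-, highest in wild-type replicate 3. *Sdc3*, a syndecan, had 612, 557 and 237 CPM in wild type and 481, 939 and 686 CPM in *Ythdf2*-/-, lowest in the same library. Of 17 integrin ligands other than laminins tested, 1 had an unadjusted p under 0.05 (3.63% of all genes), and the median was -0.07 with 8 above 0. It was *Ctgf*, a matricellular protein, low at 1.71, 0.992 and 1.56 CPM in wild type and 0.512, 0.666 and 0.644 CPM in *Ythdf2*-/-, with a log2 fold change of -1.20 ± 0.378 (SE). *Mfge8*, an RGD ligand and the most abundant of the list, had 355, 355 and 346 CPM in wild type and 541, 712 and 281 CPM in *Ythdf2*-/-. *Vcam1*, the ligand of the alpha4 subunit, had 58.3, 67.2 and 157 CPM in wild type and 119, 75.8 and 73.9 CPM in *Ythdf2*-/-, and *Adam9*, a metalloprotease, had 283, 289 and 226 CPM in wild type and 273, 396 and 263 CPM in *Ythdf2*-/-. Of the genes of these last 2 lists given here, only *Ctgf* had groups that did not overlap. Without wild-type replicate 3, edgeR gave 11 genes of the 3 lists an unadjusted p under 0.05, as it did 16.6% of all genes, and called 0 after adjustment.

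The deposited gene tables, which also list expected counts, hold 1.97% to 2.40% as many reads as the count tables. They give 74.7 to 101 expected counts per library to all 37 genes together, list 10 of the genes at 0 in the 6 tables, and were used for gene lengths only.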

How the data were processed

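RNA-seq input libraries of 3 wild-type and 3 *Ythdf2*-/- neurosphere cultures were used, grouped by the sample titles. The 6 m6A antibody libraries were not analysed here. The authors made stranded libraries, used TopHat and mm10 for alignment, and deposited raw counts per gene symbol. The submitters' processing notes also list Bowtie2 2.2.9, RSEM 1.2.15 and featureCounts, without strand or multi-mapping settings. The deposited expected counts and gene lengths, in base pairs, stand in tables with the columns of RSEM, and RPKM used the median length over the 6 tables.

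The genes and gene lists were chosen with earlier results of these data known. Counts that passed filterByExpr were tested in edgeR 4.0.16 (TMM, robust glmQLFit, glmQLFTest; R 4.3.3) in a model of genotype alone, with Benjamini-Hochberg adjustment over 13112 genes. Standard errors were taken from the F statistic. The test was checked on simulated counts, which held no library that stands apart as wild-type replicate 3 does. DESeq2 1.42.0 and limma 3.58.1 were among the alternatives. The genes of the set are named, except for an item that is not reported here; from each pathway list the 3 most abundant genes and those with an unadjusted p under 0.05 are named, and the genes whose groups did not overlap were named after their values were seen. Positions come from GRCm38.p6 and transcripts from GENCODE M21.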

Additional observations from a re-analysis of the deposited data

How the results depend on the processing

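After adjustment 0 of the integrin and laminin genes were called in every alternative except limma-voom with quality weights, which called 2. Over all genes the adjusted calls were 0 with edgeR on all libraries, 1 with RLE factors, 1 with no filter, 1 with at least 10 counts in every library, 31 with DESeq2, 13 with Y-linked reads as a term, 632 with quality weights and 0 to 2 when 1 library was left out. Unadjusted calls among the integrins and laminins, 2 with all libraries, were 10 with quality weights (29.9% of all genes), 9 with the Y-linked term (11% of all genes) and 1 to 8 with 1 library left out (1.85% to 16.6% of all genes). The 8 belong to wild-type replicate 3. *Itga3* was called in each of these fits except the one without wild-type replicate 2, whose only call was *Lama1*. *Itgb8* was not called when any library other than wild-type replicate 3 was left out. Unadjusted calls in the 3 pathway lists, 3 with all libraries, were 19, 14 and 0 to 11 under the same changes, with 11 without wild-type replicate 3 (16.6% of all genes), 7 without *Ythdf2*-/- replicate 2 (4.14%), 0 without *Ythdf2*-/- replicate 1 (1.85%) and 1 without either wild-type replicate 1 (2.82%) or 2 (2.66%).

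The replicate numbers do not pair the libraries: same-numbered libraries deviated apart (correlations of -0.248, -0.244 and -0.394), and no library correlated best with its own number. With the number as a replicate block, the unadjusted calls were 1 (*Itga3*), and 183 against 476 over all genes. The block also turned *Itga5* to a log2 fold change of 0.13.

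Other log2 fold changes also turned their sign. With limma-voom they were 0.0123 for *Itga4*, 0.00832 for *Itgb1* and 0.14 for *Itga5*, and with quality weights -0.0276 for *Lamc1*, -0.38 for *Itga6*, -0.00473 for *Itgav*, -0.0878 for *Lama5*, -0.00219 for *Lama2*, 0.21 for *Itgb3* and 0.0592 for *Itgb5*. With the Y-linked term they were 0.34 for *Itga8*, 0.54 for *Itga4*, 0.17 for *Itgb1*, 0.41 for *Lama4*, 0.54 for *Itga5* and 0.0137 for *Itgb5*. With 1 library left out, fold changes ran from -0.26 to 0.10 for *Itgb1*, -0.46 to 0.25 for *Itga5*, -0.23 to 0.21 for *Itgb5*, -0.22 to 0.27 for *Itga6*, -0.0287 to 0.62 for *Lama5*, -0.21 to 0.35 for *Lama2*, -0.90 to 0.55 for *Itgb3*, -0.10 to 0.29 for *Itga1* and -0.37 to 0.15 for *Itga9*. *Itgb8*, *Itga3*, *Itga10*, *Lama1*, *Lamb1* and *Lamb2* stayed above 0 in each alternative that tested them. *Itga7*, *Itga2*, *Itga2b* and *Itgb2* stayed below 0 in each alternative that tested them. The cause was not tested. The rarest gene tested, *Itgb2*, had 2 to 12 reads per library, so depth limits what can be seen in it.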
